A study of Mus musculus with 5 samples.

Results

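Of 21883 protein-coding genes, 9 genes of lipid-linked nuclear receptors were chosen by name, and every chromatin immunoprecipitation sequencing (ChIP-seq) peak inside each gene's mm10 span or within 50 kb of it was collected. They are Esrra, Esrrb and Esrrg, Nr1h2, Rxra and Rxrb, Ppara and Ppard, and Nr4a1. Esrrb was picked because it holds a very strong c-Maf antibody peak in both libraries, so its peak values describe the choice and carry no test. ChIP-seq was done on cells of the C57Bl/6 background that the cell type label calls M2 polarized in vitro BMM, the usual abbreviation for bone marrow-derived macrophages. Every sample title reads M0, which the labels do not explain. Formaldehyde-fixed, sonicated chromatin was precipitated in 2 libraries with a c-Maf antibody from LifeSpan, and in 2 more with normal rabbit IgG as isotype control. c-Maf is a transcription factor of the bZIP class that is known in macrophages for control of their resting and anti-inflammatory programmes. Both antibodies have a library of number 3 and one of number 4, which the design text calls biological replicates, and 1 input library of number 4 was the control for all 4 peak lists. No label gives an age, sex or number of animals. Expression was not measured in these files, so the cell type label was not tested against marker genes.

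Nuclear receptors are transcription factors of which most members carry a zinc finger DNA-binding domain and most a pocket for a small lipophilic ligand. In macrophages they are known for coupling lipid supply to gene expression: liver X receptors respond to oxysterols, peroxisome proliferator-activated receptors to fatty acids, and both bind DNA together with retinoid X receptors. The oestrogen-related receptors and the Nr4a receptors are orphans, meaning that no natural ligand is firmly assigned, and the former are known for control of mitochondrial and fatty acid oxidation genes together with coactivators of the PGC-1 type.

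The promoter sequences below come from RefSeq, build GRCm38.p6, which has the mm10 coordinates. They are the 250 bases before an annotated start, printed 5′ to 3′ on the gene's strand. The Esrrb starts are shown because the strong Esrrb site lay away from both of them, and the first Esrrg start because it carried a motif match, which is in capitals. The Nr1d1 promoter is shown because it held the single peak found in any promoter of the nuclear receptor family, which is in capitals.

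Esrrb, first start (chr12:86360867-86361116, plus strand): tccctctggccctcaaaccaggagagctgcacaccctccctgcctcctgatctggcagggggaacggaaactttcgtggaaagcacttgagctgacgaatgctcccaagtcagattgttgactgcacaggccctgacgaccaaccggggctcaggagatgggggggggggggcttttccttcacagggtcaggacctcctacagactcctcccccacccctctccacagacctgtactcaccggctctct
Esrrb, second start (chr12:86421394-86421643, plus strand): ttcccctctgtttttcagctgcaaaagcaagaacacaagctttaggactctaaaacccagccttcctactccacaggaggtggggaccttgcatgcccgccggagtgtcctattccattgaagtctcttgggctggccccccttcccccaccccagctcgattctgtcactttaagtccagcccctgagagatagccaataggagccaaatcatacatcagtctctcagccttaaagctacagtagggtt
Esrrg, first start (chr1:187608756-187609005, plus strand): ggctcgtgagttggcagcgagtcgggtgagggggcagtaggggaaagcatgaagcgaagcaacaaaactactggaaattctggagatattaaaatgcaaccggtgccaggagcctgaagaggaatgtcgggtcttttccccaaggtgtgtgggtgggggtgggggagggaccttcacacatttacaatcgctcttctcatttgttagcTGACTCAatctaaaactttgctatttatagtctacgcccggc
Nr1d1 (chr11:98775378-98775627, minus strand): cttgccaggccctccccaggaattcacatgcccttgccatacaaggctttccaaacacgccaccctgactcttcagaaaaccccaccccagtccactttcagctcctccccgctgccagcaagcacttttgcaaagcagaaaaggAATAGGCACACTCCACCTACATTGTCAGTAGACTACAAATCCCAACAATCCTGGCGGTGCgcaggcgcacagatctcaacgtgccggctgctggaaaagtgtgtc

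Promoters of 300 bases, 250 before and 50 after a start, were searched on both strands for 4 motifs: the palindromic Maf recognition element known as T-MARE, the shorter Maf motif TGCTGAC at its end, the AP-1 like core TGACTCA or TGAGTCA, and the oestrogen-related receptor element TCAAGGTCA. The first 3 overlap one another by construction. Of 15 promoters of the 9 genes, 1 held a match, the core TGACTCA before the first Esrrg start. That core is found in 5.2% of all 32851 promoters, the shorter Maf motif in 4.67%, the oestrogen-related receptor element in 0.423% and the full T-MARE in 0.00304%. Neither Esrrb promoter held any of these letters, nor did the Nr1d1 promoter. The bases under the Esrrb and Rxra peaks were not analysed here, so the motif search covers promoters alone.

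Sequencing depth was similar, with 21655683 to 22017759 tags per antibody library after duplicate filtering, but the peak lists were not of similar length. They held 23434 and 17620 peaks for the c-Maf antibody of numbers 3 and 4, and 58732 and 15568 for the isotype. Peak height is given as the summit pileup, the authors' count of overlapping tags at the summit scaled down to the depth of the input, so that 1 tag is worth slightly less than 1. Fold enrichment is the authors' ratio of pileup to local input level, with 1 added to both. The median peak of each list stood on 4 to 6 tags. The lowest peaks stood on 3 tags in the isotype list of number 3 and on 4 tags in every other list. A peak missing from a list therefore means that it did not pass the authors' p-value of 0.01, not that no tag was there. With 2 libraries against 2 there are 3 ways to split them, so a permutation test over libraries cannot give a p below 1 in 3, and no p-value is given.

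The 9 gene windows together held 136 peaks across the 4 lists, of which 2 had a q-value of 0.05 or smaller, and both of those were the Esrrb site. In the whole lists such peaks numbered 717 of 23434 and 505 of 17620 for the c-Maf antibody of numbers 3 and 4. For the isotype they numbered 244 of 58732 and 408 of 15568. Esrrb was chosen for that site, so nothing is read from the count of 2. Of the 136, 86 lay inside a gene span and 50 in the flanks. All but the 2 Esrrb peaks stood on 3 to 8 tags. The c-Maf antibody library of number 3 had 34 peaks in these windows, that of number 4 had 16, and the isotype libraries had 75 and 11. Peaks were thus most frequent in the isotype library of number 3, whose list is also the longest, and least frequent in the isotype library of number 4.

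**Figure D1:**
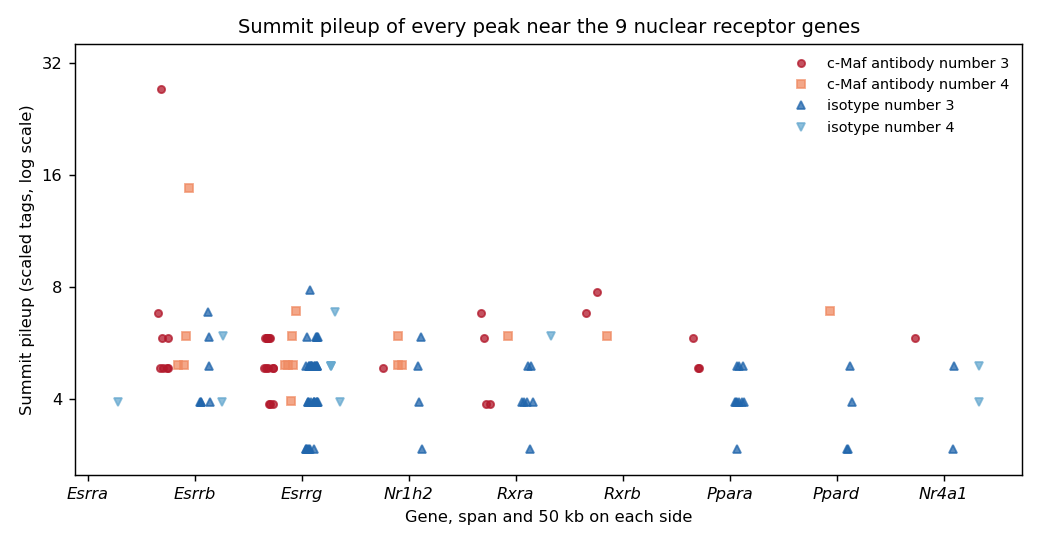
Summit pileup in scaled tags, on a log scale, of each of the 136 peaks inside or within 50 kb of the 9 genes, with 1 point per peak and 1 colour and shape per library. The c-Maf antibody peaks of Esrrb at 27.18 and 14.80 stand above all other points, the next highest of which is an isotype peak of Esrrg at 7.83.

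Esrrb encodes oestrogen-related receptor beta, an orphan receptor known for sustaining the pluripotent state of embryonic stem cells and for roles in placenta and inner ear. It spans 160.51 kb on the plus strand of chromosome 12, from 86361117 to 86521628. The c-Maf antibody library of number 3 had a peak at chr12:86488084-86488402 with a pileup of 27.18, which is 28 tags (95% exact Poisson interval 18.6 to 40.5, counting error only). The c-Maf antibody library of number 4 had one at chr12:86488144-86488351 with a pileup of 14.80, which is 15 tags (8.4 to 24.7). Neither isotype library had a peak there: the nearest lay 6.9 kb away in number 3 and 46.1 kb away in number 4. The site was thus high in both c-Maf antibody libraries and unlisted in both isotype libraries, and the counting intervals of the 28 and 15 tags overlap.

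The Esrrb peaks coincided closely. The shorter peak lay wholly within the longer, sharing 208 bp, and their summits were 14 bp apart. Fold enrichment was 14.97 in number 3 and 8.59 in number 4, a mean of 11.8 ± 4.5 (SD, n = 2), over local input levels of 0.882 and 0.840 scaled tags. Mean pileup was 20.99 ± 8.75 (SD, n = 2), and that of number 3 was 1.84 times that of number 4.

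Within their lists the Esrrb peaks ranked 3 of 23434 and 16 of 17620 by p-value. By pileup alone they ranked 189 and 352. Of the 188 peaks of number 3 with a higher pileup, 188 had a higher local input level than the Esrrb peak, and of the 351 of number 4, 349 did. They were wide, ranking 11 and 48 by length, with 319 bp and 208 bp against list medians of 63 bp and 60 bp. Among the 491 regions held by both c-Maf antibody lists and neither isotype list, here called c-Maf-only regions, the Esrrb region was the fifth (5 of 491) by mean percentile rank of p.

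The site lay deep inside the gene. Its summits were 127.1 kb downstream of the first annotated Esrrb start and 66.6 kb downstream of the second. The gene table used here gives spans and starts but no exons, so whether the site is exonic or intronic was not analysed. No other protein-coding gene lies within 50 kb of the Esrrb span.

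The rest of the Esrrb window showed no second site shared between libraries. The c-Maf antibody library of number 3 had 7 further peaks with pileups from 4.85 to 6.79, and that of number 4 had 3 further peaks from 4.93 to 5.92, none of which overlapped between the lists. Over the whole lists, 3.36% of c-Maf antibody peaks of number 3 and 4.46% of those of number 4 overlapped the other c-Maf antibody list. Nothing is therefore read from a lack of overlap, here or at the genes below. The isotype library of number 3 had 7 peaks from 3.92 to 6.85 and that of number 4 had 2, at 3.92 and 5.89. Away from the strong site the antibodies therefore gave overlapping ranges of pileup. The peak closest to an Esrrb start was an isotype peak of number 3, 0.8 kb inside the gene, and it was the single one of the 136 peaks whose summit lay within 1 kb of an annotated start.

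**Figure D2:**
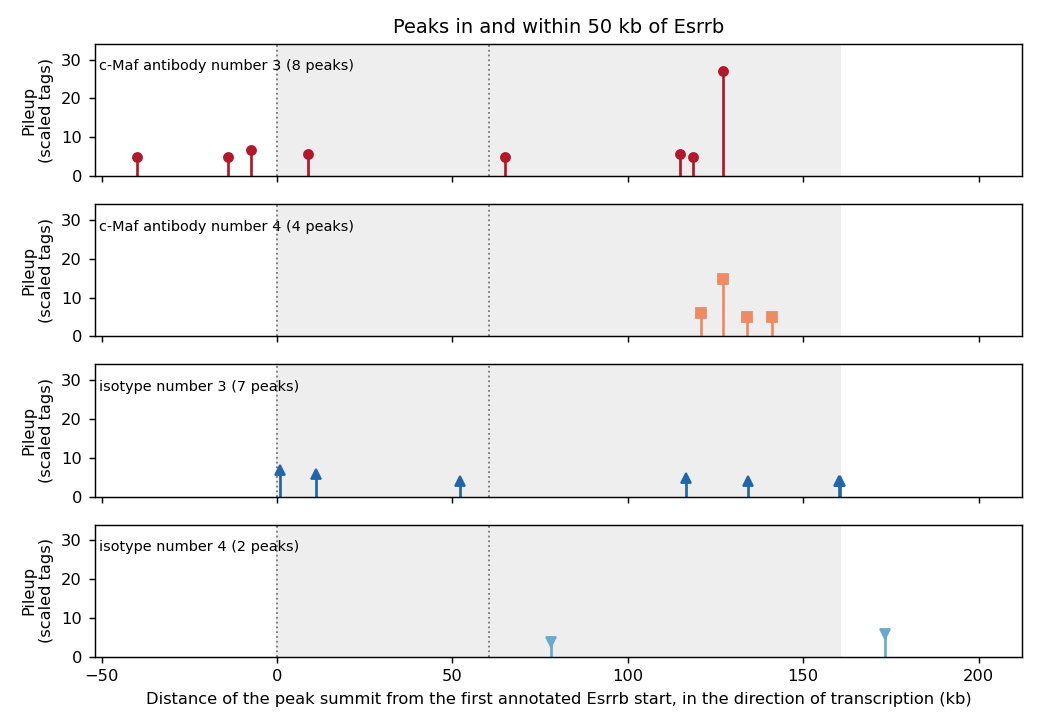
Pileup in scaled tags of each peak in or within 50 kb of Esrrb, by distance in kb of its summit from the first annotated start, with 1 row per library. Grey marks the gene span and dotted lines the 2 annotated starts; the peaks of 27.18 and 14.80 stand at 127.1 kb in the c-Maf antibody rows, and no isotype peak stands there.

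Esrra encodes oestrogen-related receptor alpha, a regulator of mitochondrial oxidative metabolism. It spans 11.07 kb on the minus strand of chromosome 19 (6910977 to 6922048), and had the emptiest window. The c-Maf antibody libraries had 0 peaks in it, and their nearest peaks lay 229.6 kb away in number 3 and 87.7 kb away in number 4. The window's lone peak was an isotype peak of number 4, 30016 bp beyond the gene's end, with a pileup of 3.92. Although 7 other protein-coding genes share this window, none of them had a c-Maf antibody peak there.

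Esrrg encodes oestrogen-related receptor gamma, known for oxidative metabolism in heart and muscle. It spans 606.38 kb on chromosome 1 (187608510 to 188214885, plus strand), the longest of the 9. It held 67 of the 136 peaks, or 49.3%, in 36.5% of the summed window length. The c-Maf antibody libraries had 15 and 6 of them, with pileups up to 5.82 and 6.91, and the isotype libraries had 41 and 5, with pileups up to 7.83 and 6.87. In number 3 the isotype library thus had more Esrrg peaks than the c-Maf antibody library, and in number 4 it had 5 against 6.

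Esrrg had 4 regions held by more than 1 list, and each of them joined the isotype library of number 3 to a c-Maf antibody library. They were chr1:187576708-187576821, chr1:187706139-187706205 and chr1:188051562-188051632, in which the other list was the c-Maf antibody one of number 4, and chr1:187769317-187769487, in which it was that of number 3. The best c-Maf antibody peak of the gene, a pileup of 6.91 in number 4, is in the third of these. No Esrrg region was held by both c-Maf antibody libraries. Among the oestrogen-related receptor genes, a c-Maf-only region was thus found in Esrrb alone. Neither Esrra nor Esrrg had a c-Maf antibody peak with a q-value of 0.05 or smaller. Of all protein-coding genes, 3.17% had a c-Maf-only region in the window. A c-Maf antibody peak at that q-value was present for 4.44% in number 3 and 2.37% in number 4. Esrrb was chosen for its region, so nothing is read from its contrast with Esrra and Esrrg.

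Rxra encodes retinoid X receptor alpha, the partner with which liver X receptors and peroxisome proliferator-activated receptors bind DNA. It spans 86.88 kb on chromosome 2 (27676445 to 27763319, plus strand). It was the second gene of the 9 with a c-Maf-only region. The c-Maf antibody library of number 3 had a peak at chr2:27740232-27740294 with a pileup of 5.82, and that of number 4 had one at chr2:27740233-27740292 with a pileup of 5.92, each of them 6 tags. The isotype libraries had no peak there, the nearest being 28.9 kb away in number 3 and 108.6 kb away in number 4.

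The Rxra site was far weaker than the Esrrb site. Its summits were 5 bp apart, 63.1 kb downstream of the first annotated start. Fold enrichment was 3.41 and 3.46, a mean of 3.44 ± 0.03 (SD, n = 2), and the authors' −log10 of the q-value was 0 in both. The peaks ranked 16804 of 23434 and 12646 of 17620 by p-value, and the region ranked 445 of 491 among c-Maf-only regions. The stronger Rxra peak of the c-Maf antibody library of number 3, at chr2:27758539-27758613 with a pileup of 6.79, had no counterpart in number 4.

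**Figure D3:**
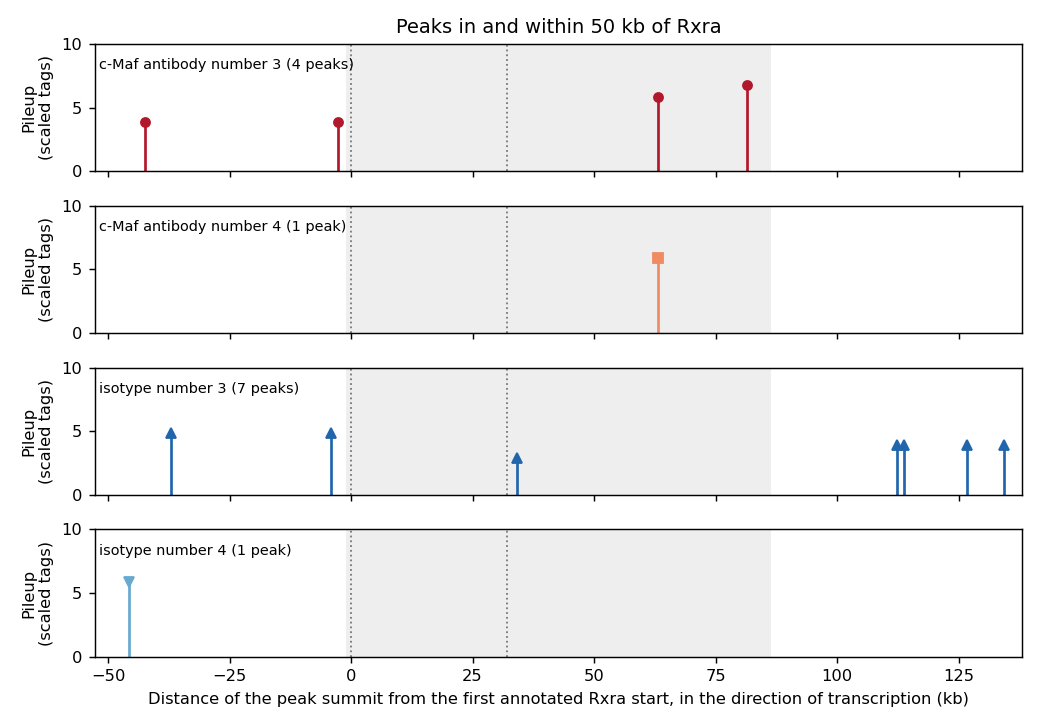
Pileup in scaled tags of each peak in or within 50 kb of Rxra, by distance in kb of its summit from the first annotated start, with 1 row per library. Grey marks the gene span and dotted lines the 2 annotated starts; the c-Maf antibody rows share the summit at 63.1 kb, with pileups of 5.82 and 5.92, near the height of the other peaks.

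Rxrb encodes retinoid X receptor beta and lies in the major histocompatibility complex on chromosome 17 (34031812 to 34038403, plus strand). Its span of 6.59 kb held no peak of any library. In the flanks the c-Maf antibody library of number 3 had peaks with pileups of 6.79, 19.1 kb upstream, and 7.76, 19.1 kb downstream and inside Col11a2, a collagen gene. That of number 4 had 1 peak of 5.92, 43.3 kb upstream. Both isotype libraries had 0 peaks in the window, with the nearest 117.3 kb and 409.1 kb from the gene. Rxrb was thus the gene of the 9 with peaks from c-Maf antibody libraries alone, but they were 3 separate weak peaks and none was shared.

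Nr1h2 encodes liver X receptor beta, an oxysterol sensor that induces cholesterol efflux genes. It spans 4.35 kb on the minus strand of chromosome 7 (44549616 to 44553968), and no library had a peak inside it. The c-Maf antibody libraries had 1 and 3 peaks in the flanks with pileups from 4.85 to 5.92. The isotype libraries had 4 and 0 peaks, from 2.94 to 5.87, the nearest 3.5 kb upstream of the gene. The farthest of the c-Maf antibody peaks, at 49.7 kb, was the one just inside the 50 kb limit. Just outside it, at 54.7 kb from Rxrb, lay a peak of number 4 with a pileup of 4.93.

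Ppara encodes the receptor that drives fatty acid oxidation genes, and Ppard a fatty acid sensor known in alternatively activated macrophages. Ppara spans 71.94 kb on chromosome 15 (85734910 to 85806851, plus strand). It held 0 c-Maf antibody peaks inside the gene, 3 in its flanks from number 3, with pileups of 4.85 to 5.82, and 0 from number 4. The isotype library of number 3 had 10 peaks in the same window, 5 of them inside the gene, with pileups of 2.94 to 4.89, and that of number 4 had 0. Ppard spans 68.72 kb on chromosome 17 (28232754 to 28301469, plus strand). It had 1 c-Maf antibody peak, from number 4, 36.7 kb downstream and inside Tead3, with a pileup of 6.91. The isotype library of number 3 had 4 Ppard peaks, 3 of them inside the gene, with pileups of 2.94 to 4.89. Inside the spans of both receptors, peaks came from the isotype library of number 3, whose list is the longest, and from no c-Maf antibody library. In lists of equal length the contrast was lost at Ppara and rested on 1 peak at Ppard. With each list cut to 15568 peaks, the whole Ppara window held 0 isotype and 2 c-Maf antibody peaks of number 3, the latter in the flanks. The whole Ppard window then held 1 isotype peak, which lay inside the gene, and 0 c-Maf antibody peaks of number 3.

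Nr4a1 encodes Nur77, an early response gene of activated myeloid cells. It spans 20.89 kb on chromosome 15 (101253902 to 101274795, plus strand), and no library had a peak inside it. The c-Maf antibody library of number 3 had 1 peak 44.8 kb upstream, inside Acvr1b, with a pileup of 5.82, and that of number 4 had 0. The isotype libraries had 2 peaks each in the flanks, with pileups from 2.94 to 4.91.

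Ordered by the highest c-Maf antibody pileup in the window, Esrrb came first in both libraries. In number 3 it was followed by Rxrb at 7.76, Rxra at 6.79, then Esrrg, Ppara and Nr4a1 at 5.82 and Nr1h2 at 4.85. In number 4 it was followed by Esrrg and Ppard at 6.91, then Rxra and Rxrb at 5.92 and Nr1h2, also at 5.92. Esrra had no c-Maf antibody peak in either library, Ppard none in number 3, and Ppara and Nr4a1 none in number 4. Neighbours in these orders after Esrrb differed by 1 tag or less, which is within counting error, and the orders of the libraries were not the same.

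Because the windows run from 104.4 to 706.4 kb, peaks were also counted per 100 kb. Over all 9 windows the c-Maf antibody libraries had 1.75 and 0.826 peaks per 100 kb, and the isotype libraries 3.87 and 0.568. Over the windows of all protein-coding genes the same libraries had 0.938, 0.674, 2.21 and 0.586. The c-Maf antibody mean minus the isotype mean in the 9 windows was -0.93 peaks per 100 kb, smaller than the SD of 1.72 between libraries of the same antibody. The sign rested on the isotype library of number 3, since without it the difference was 0.72. When all lists were shortened to their 15568 peaks of smallest p, the windows held 20 and 16 c-Maf antibody peaks and 23 and 11 isotype peaks.

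**Figure D4:**
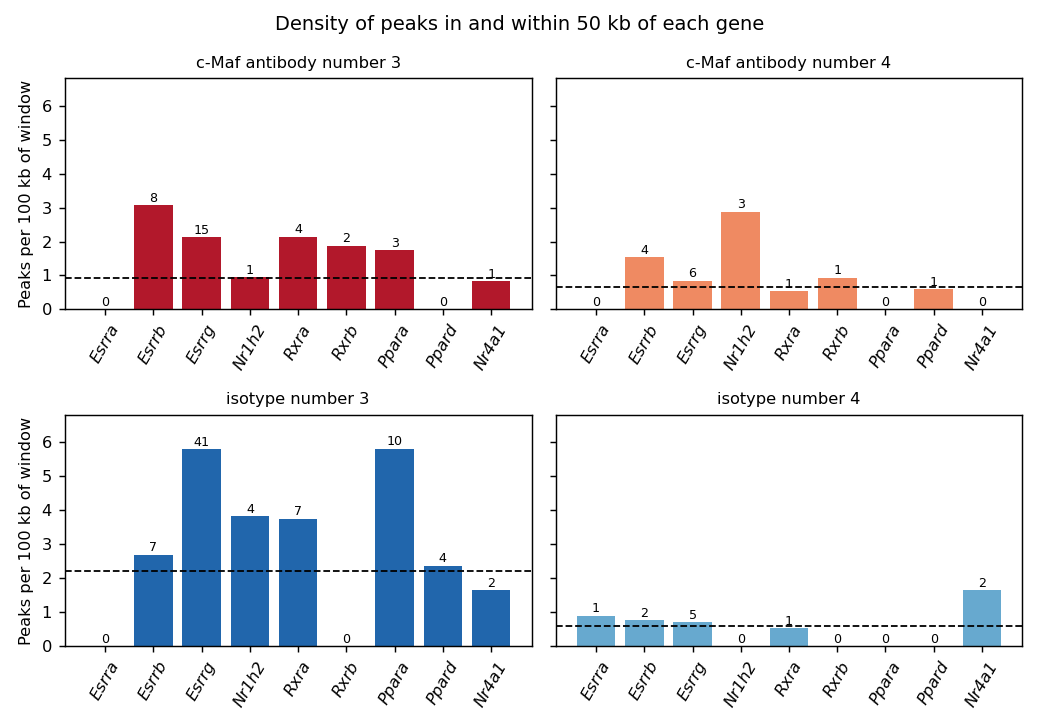
Peaks per 100 kb of window, 1 panel per library, for each of the 9 genes with 50 kb on each side, with the number of peaks above each bar. The dashed line is the same library's density over the windows of all protein-coding genes, 0.938, 0.674, 2.21 and 0.586 in panel order; Esrrg and Ppara reach 5.80 and 5.82 in the isotype library of number 3.

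A c-Maf-only region was present for 2 of the 9 genes, Esrrb and Rxra, against 3.17% of all protein-coding genes. For both the region lay inside the span, which was so for 0.946% of all genes. Esrrb was chosen for that region, and the windows of the 9 genes differ in length, so nothing is read from this share. An isotype-only region, defined with the antibodies exchanged, was present for 0 of the 9, against 1.45% of all. A peak of each c-Maf antibody library, shared or not, was present for 5 of the 9, against 39.2% of all, and a peak of each isotype library for 4 of the 9, against 42.5%. Single libraries reached 7 genes (c-Maf antibody, number 3; 66.7% of all genes), 6 (c-Maf antibody, number 4; 53.8%), 7 (isotype, number 3; 85.0%) and 5 (isotype, number 4; 47.3%).

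The wider nuclear receptor family holds 49 genes, all of which matched the gene table. Esrrb had the highest pileup in both c-Maf antibody libraries. The next highest was 7.76 in number 3, shared by Nr1d2 and Rxrb, and 8.88 in number 4, at Rarb, a retinoic acid receptor gene. In the isotype libraries the highest values in the family were 7.83 at Esrrg in number 3 and 7.85 at Thrb, a thyroid hormone receptor gene, in number 4. Esrrb itself reached 6.85 and 5.89 there. In number 3, 34 of the 49 genes had a c-Maf antibody peak and 46 an isotype peak, and in number 4 the counts were 34 and 25. Of all protein-coding genes, 66.7% and 85.0% had such a peak in number 3, and 53.8% and 47.3% in number 4. Windows differ in length, so nothing is read from these counts.

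**Figure D5:**
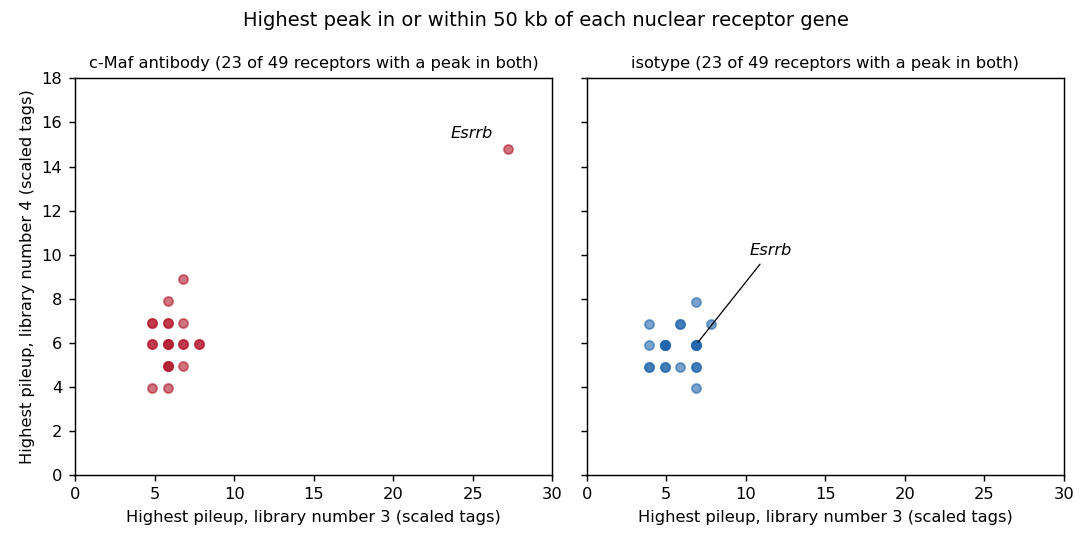
Highest pileup in scaled tags of the peaks in or within 50 kb of each nuclear receptor gene, in library number 3 against library number 4, for the c-Maf antibody (left) and the isotype (right). Each point is a gene with a peak in both libraries, 23 of 49 on each side, against 39.2% (left) and 42.5% (right) of all protein-coding genes. Esrrb stands alone at 27.18 and 14.80 on the left and among the other genes, at 6.85 and 5.89, on the right.

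Among the 40 receptors outside the 9 genes, 1 (2.5%) had a c-Maf-only region in its window, against 3.17% of all protein-coding genes. This gene was Nr1h3, which encodes liver X receptor alpha. That region, chr2:91206415-91206602, lay 3.6 kb from the Nr1h3 span and inside Acp2, a lysosomal acid phosphatase gene. Its pileups were 5.82 and 4.93, with fold enrichments of 4.55 and 4.02, and neither peak had a q-value of 0.05 or smaller. A c-Maf antibody peak at that q-value was found for 2 further receptors, each in 1 library, against 4.44% of all genes in number 3 and 2.37% in number 4; both are named after their values were seen. Pparg, the receptor of adipocyte and macrophage lipid storage, held one in number 4 at chr6:115401114-115401177, with a pileup of 7.89. Nr1d2, a haem receptor of the circadian clock, had one in number 3, 47.4 kb away, with a pileup of 7.76.

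Promoters were nearly free of peaks. Of the 15 promoters of the 9 genes, 0 overlapped a peak of any library. In all promoters the share with a peak was 0.578% and 0.353% for the c-Maf antibody of numbers 3 and 4, and 0.743% and 0.225% for the isotype. Among the 64 promoters of the nuclear receptor family the single overlap was at Nr1d1, which encodes the clock and lipid metabolism repressor REV-ERB alpha. The peak of the c-Maf antibody library of number 4, chr11:98775423-98775482, is the stretch in capitals above, with its summit 73 bp upstream of the start. It stood on 6 tags, a pileup of 5.92 and a fold enrichment of 4.33, and the other 3 libraries had no peak there.

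Of 18 coregulator genes of nuclear receptors, including those of the PGC-1 coactivators and the NCoR corepressors, 0 had a c-Maf-only region in the window. Ncor1, a corepressor gene named after its values were seen, had a c-Maf antibody peak of number 3 with a q-value of 0.05 or smaller, 9.1 kb away, with a pileup of 8.74. Of 32 lipid genes controlled by these receptors, 3 had a c-Maf-only region, Lpl, Mertk and Acadl, and all 3 regions lay outside the gene itself. The Lpl region, near the lipoprotein lipase gene, was 45.0 kb away with pileups of 6.79 and 6.91 and fold enrichments of 4.78 and 3.95. That of Mertk, which encodes a kinase receptor of efferocytosis, was 3.5 kb away with pileups of 9.71 and 7.89. Its fold enrichments were 5.89 in number 3 and 2.96 in number 4, where the peak ranked 14232 of 17620 by p-value. The region of Acadl, an acyl-CoA dehydrogenase gene, was 14.6 kb away inside Kansl1l. Its pileups were 3.88 and 4.93 and its fold enrichments 2.78 and 2.97. At a q-value of 0.05 or smaller, c-Maf antibody peaks of number 3 lay near Mertk, with the pileup of 9.71 above, and Abca1, a cholesterol exporter gene. The Abca1 peak was 14.9 kb away with a pileup of 7.76, and Abca1 too was named after its values were seen. Such peaks were thus near 1 of 18 coregulator and 2 of 32 lipid genes in number 3, against 4.44% of all genes. In number 4 they were near 0 genes of both lists, against 2.37% of all genes. Neither list had an isotype-only region. For c-Maf-only regions, the shares of 0 of 18 and 3 of 32 stand beside the 3.17% of all genes.

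The genes whose c-Maf-only region ranked most like that of Esrrb were sought among the 50 of 205 other genes holding such a region that had no isotype peak in their span. Esrrb would not pass that limit itself. Likeness was the summed difference in percentile rank of p over the 2 c-Maf antibody libraries. The nearest of these 50 was Fbxo34, an F-box protein gene, with pileups of 18.44 and 12.83, then Rhoh, a blood cell GTPase gene, with 26.21 and 17.76. Acox3, a peroxisomal acyl-CoA oxidase gene, followed with 15.53 and 8.88, then Slc66a1 with 11.65 and 8.88 and E2f7, a cell cycle repressor gene, with 10.68 and 9.87. The Esrrb span itself held isotype peaks, 6 from number 3 and 1 from number 4, all of them away from the site.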

How the data were processed

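The authors called peaks separately in each of the 4 antibody libraries with MACS 2.1.1.20160309, per the file headers. The submitters' processing notes name MACS 1.4.2 as well. The headers give single-end mode, peaks called at p of 0.01, duplicates reduced to 1 tag a position, fragment lengths of 53 to 63 bp for 50 bp tags, the number 4 input as control, and an effective genome size of 2700000000, the human setting, which lowers the genome-wide background used for a mouse genome. The mm10 build is named in the submitters' processing notes. An aligner was not given in the sources used here. A summit pileup signal, a fold enrichment ratio and −log10 values of p and q came with every deposited peak, per the file headers. These headers also state that q-values were not calculated, yet the deposited column held q-values, which were used as they stand. Starts are 1-based, since length equals end minus start plus 1.

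Tags were recovered as pileup divided by the library's scaling to the input. They came out whole within 0.05 for 100% of peaks. Peaks sharing 1 bp or more were joined as regions in Python 3.11.15. Genes, matched for all 9 by symbol, and promoters came from RefSeq tables of GRCm38.p6. The functions were tested on simulated peaks. Named genes were all 9 members, up to 10 other receptors and up to 10 coregulator or lipid genes with a c-Maf-only region, ordered by mean percentile rank of p, and the 5 genes most like Esrrb among those with no isotype peak in their span. Pparg, Nr1d1, Nr1d2, Rarb, Thrb, Ncor1 and Abca1 fall outside this rule and were named after their values were seen. The members and lists were chosen with earlier results of these data known. Alternatives were other windows, thresholds, overlaps, list lengths, left-out libraries and a replicate block. The input was used as it entered the authors' peak calls, and no column was left unmapped.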

Additional observations from a re-analysis of the deposited data

How the results depend on the processing

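The mean pileup of the Esrrb site, 20.99, is the mean of deposited values that no window, threshold or list length can change, so it is no sign of stability. It is 14.80 or 27.18 with a lone c-Maf antibody library. Genes with a c-Maf-only region fell from 2 to 1, with Rxra lost, at a p-value of 1e-05, a p-value of 1e-10, a q-value of 0.05, a fold enrichment of 5 and equal list lengths. Genes with a peak of each c-Maf antibody library fell from 5 to 1 at these first 4 settings, and were 3 within 0, 5 or 10 kb and 8 within 100 kb. With 1 library left out, genes with a c-Maf-only region ranged from 2 to 7, those with an isotype-only region from 0 to 7, and those with c-Maf antibody peaks from 5 to 7, as 1 list then stood for its antibody. The peak density of the c-Maf antibody minus that of the isotype, -0.93 per 100 kb, turned to 0.103 at a p-value of 1e-05 and at a fold enrichment of 5, and to 0.0516 at a p-value of 1e-10, at a q-value of 0.05 and at equal list lengths. It ranged from -2.58 to 0.72 with 1 library left out, and was -0.45 without Esrrg, a setting chosen after the data were seen. Why these values turned was not tested. No label says that same-numbered libraries share an animal or day; with the number as a replicate block the values were 2, 0 and 5 genes, -0.93 per 100 kb and a pileup of 20.99. With 1 library of each number per antibody the block leaves the 5 genes, the density and the pileup as they are. The counts of 2 and 0 were recomputed without peaks overlapping the same-numbered list of the other antibody, and could have differed. None of these values shows whether same-numbered libraries are paired. In the 9 gene windows, weak peaks of 3 to 8 tags limit every count except the Esrrb site. Counts over other genes are limited too, since the median peak of each whole list stood on 4 to 6 tags.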
